A study of Mus musculus with 4 samples.

Results

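RBPJ binding was examined at 61 chemokine and chemokine receptor genes, 37 of them ligand genes and 24 receptor genes, in alveolar macrophages (AMs), the macrophages that reside in the air sacs of the lung. The members were all protein-coding genes of the GENCODE annotation with a symbol of the Ccl, Cxcl, Ccr or Cxcr series followed by a number, together with Cx3cl1, Cx3cr1, Xcl1, Xcr1, Ccrl2 and Ackr1 to Ackr4, and they were 61 of the 21755 protein-coding genes on the chromosomes of the peak lists. No measured value entered the choice. The AMs came from bronchoalveolar lavage of C57BL/6J mice (WT, 9 wk of age) and were sorted into aliquots of 200000 cells. RBPJ occupancy was profiled by HT-ChIPmentation, in which chromatin is immunoprecipitated and then tagmented on the beads, in 2 libraries (RBPJ replicates 1 and 2), with 2 input libraries as their background. Each RBPJ library had its own list of peaks, and the inputs entered only through the peak calling. The labels do not say whether the 2 libraries came from separate mice.

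Chemokines are small secreted proteins that guide leukocytes along concentration gradients through G protein-coupled receptors, and their names follow the spacing of the first cysteines (CC, CXC, CX3C and C). Some are induced in inflammation, whereas others are made constitutively to place cells in tissues, and atypical receptors bind ligands without signaling through G proteins. AMs are a known source of neutrophil- and monocyte-attracting chemokines in the lung. Activated Notch receptors reach the genome through RBPJ, a DNA-binding protein whose core binding word is TGGGAA.

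Regions that held at least 1 peak of each library, after merging peaks that overlapped by at least 1 bp, formed a consensus of 25454 regions. For each region, the fold enrichment over input at the highest summit is given for replicate 1 and then for replicate 2, as the peak caller computed it, and the lower of both is called the lower fold. Distances run from the summit of whichever library had the higher fold to the closest transcription start site (TSS) of the gene, with negative values upstream. A region was tied to a member when it lay within 1 kb of a TSS of the gene, overlapped the gene body, or had its nearest protein-coding TSS there. In all, 129 regions were tied to members, and none to more than 1 member.

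The bases around the summit are shown for 5 of the strongest regions within 1 kb of a member TSS, which are ones the strength values below turn on. Each run spans 201 bases of mm10 centered on the summit, reads 5′ to 3′ on the strand of the gene, and has TGGGAA or its complement TTCCCA in capitals.
Ccl6, chr11:83593418-83593618, minus strand: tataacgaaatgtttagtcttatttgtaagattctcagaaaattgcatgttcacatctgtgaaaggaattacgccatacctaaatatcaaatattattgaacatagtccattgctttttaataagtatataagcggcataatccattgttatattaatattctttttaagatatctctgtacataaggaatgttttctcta
Ccrl2, chr9:111059289-111059489, minus strand: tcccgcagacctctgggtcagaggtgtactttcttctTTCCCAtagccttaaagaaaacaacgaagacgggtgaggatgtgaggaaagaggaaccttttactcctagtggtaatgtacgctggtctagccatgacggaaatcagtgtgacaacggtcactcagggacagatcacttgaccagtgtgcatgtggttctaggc
Ccr1, chr9:123968562-123968762, minus strand: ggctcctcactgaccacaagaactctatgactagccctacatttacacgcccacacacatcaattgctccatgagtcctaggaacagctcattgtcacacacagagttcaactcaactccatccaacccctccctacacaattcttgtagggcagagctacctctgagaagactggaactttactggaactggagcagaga
Cxcl2, chr5:90903499-90903699, plus strand: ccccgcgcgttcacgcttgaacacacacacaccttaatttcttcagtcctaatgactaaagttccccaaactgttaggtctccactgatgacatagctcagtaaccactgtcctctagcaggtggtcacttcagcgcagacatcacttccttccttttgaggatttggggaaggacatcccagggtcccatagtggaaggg
Ccl2, chr11:82035373-82035573, plus strand: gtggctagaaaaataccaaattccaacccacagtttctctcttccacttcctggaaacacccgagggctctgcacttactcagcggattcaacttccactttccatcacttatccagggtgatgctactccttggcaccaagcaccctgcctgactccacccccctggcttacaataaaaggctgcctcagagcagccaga
Of these windows, that of Ccrl2 alone held the RBPJ word, as TTCCCA on the strand of the gene. The Ccrl2 window is centered on the replicate 1 summit at -1870 bp, whereas the replicate 2 summit of that region lay at -26 bp. The windows of Ccl6 and Ccr1 held none of the 6 words searched, and those of Cxcl2 and Ccl2 held AGGAAG, the word of ETS factors such as PU.1.

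RBPJ regions lay close to fewer chemokine gene starts than gene starts in general, but more chemokine genes than genes in general had a region somewhere at their locus. A consensus region within 1 kb of a TSS was found at 13 of 61 members (21.3%), against 33.7% of all protein-coding genes. These were the ligand genes Ccl2, Ccl3, Ccl4, Ccl6, Ccl9, Ccl25, Ccl27a, Cxcl2 and Cxcl10 and the receptor genes Ccr1, Ccr10, Ccrl2 and Cxcr4. The gene body was overlapped at 22 members (36.1%), against 36.6% of all genes. By contrast, 35 members (57.4%) were the nearest gene of a region, against 40.5%, and 37 (60.7%) had any consensus region, against 44.8%. Shares are descriptions over a set of genes chosen by symbol, and no test was made. When peaks of both libraries had to overlap by at least 50% of both widths, only Ccl3 and Cxcl2 kept a region within 1 kb, 2 members, against 20.3% of all genes.

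**Figure D1:**
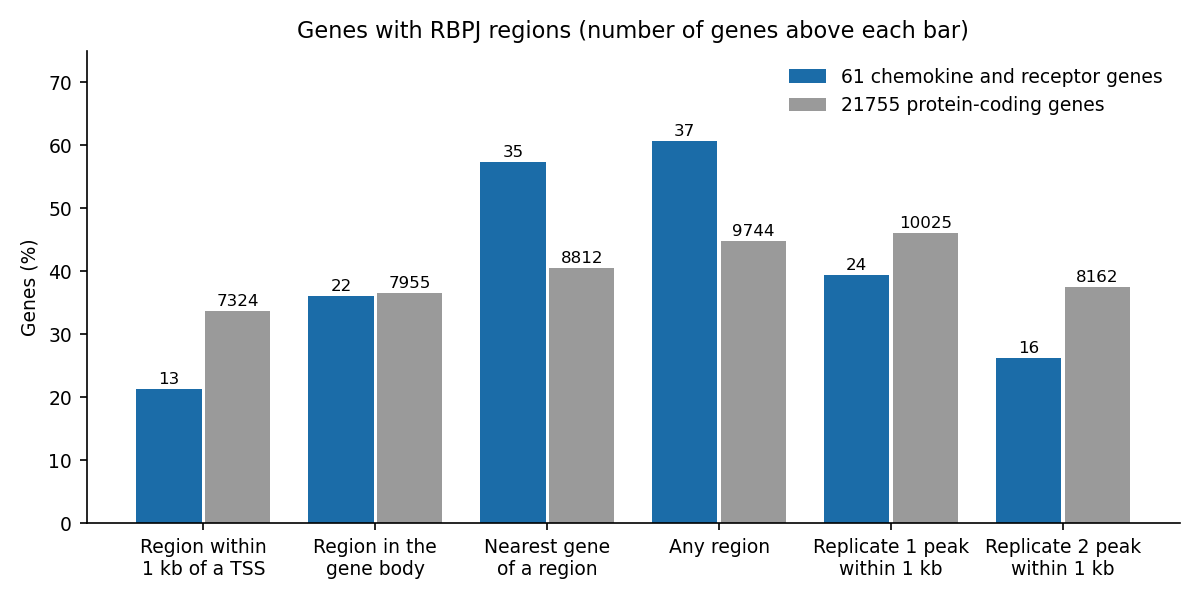
Share of genes (y axis, percent) with RBPJ regions by 6 measures, for the 61 chemokine and chemokine receptor genes (blue) and for all 21755 protein-coding genes (grey), with the number of genes above each bar. The first 4 measures use regions shared by both libraries and the last 2 use the list of 1 library. Members sit below all genes within 1 kb of a TSS (21.3% and 33.7%) and above them for any region (60.7% and 44.8%).

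Chemokine promoters differed from most promoters in base composition. In the 300 bases around the start (250 before and 50 after the 5′-most TSS), the median number of CpG dinucleotides was 4 in members and 12 in all genes, and 54 of 61 members (88.5%) fell below the median of all genes. The letters TATAAA, on either strand, were present in 18 member windows (29.5%), against 12.5% of all windows. Genes with few promoter CpGs had regions less often in general, so the members were also set beside their own class. Among the 54 members below the CpG median, 11 (20.4%) had a region within 1 kb, against 13.8% of all genes in that class, and 33 (61.1%) had any region, against 25.5%. Among the 7 members at or above the median, 2 (28.6%) had a region within 1 kb, against 52.1%, and 4 (57.1%) had any, against 62.7%. Within the CpG-poor class the members' share near a TSS was thus above that of all genes, and this split was chosen after the other results were known.

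The regions themselves were of ordinary strength, and a smaller share of them than of all regions lay within 1 kb of a TSS. By the median, however, member TSSs were closer to a region than those of all genes. The median distance from a TSS to the edge of the closest region was 7952 bp for the 61 members and 22669 bp for all genes. Of the 129 member regions, 20 (15.5%) lay within 1 kb of any protein-coding TSS, against 34.8% of all regions, and 16 lay within 1 kb of a TSS of a member. By summit, 68 were upstream of the gene they were tied to, 32 downstream, 19 in an intron and 10 in an exon, and 35 (27.1%) were more than 20 kb from the nearest TSS, against 29.9% of all regions. Their median lower fold was 4.86, against 4.69 over all regions, with a range of 2.56 to 12.2, and 18 of them (14.0%) were in the highest 10% of all regions by lower fold. In the 37 members with a region, the strongest one had a median lower fold of 5.36, against 5.84 over the 9744 genes with any region.

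**Figure D2:**
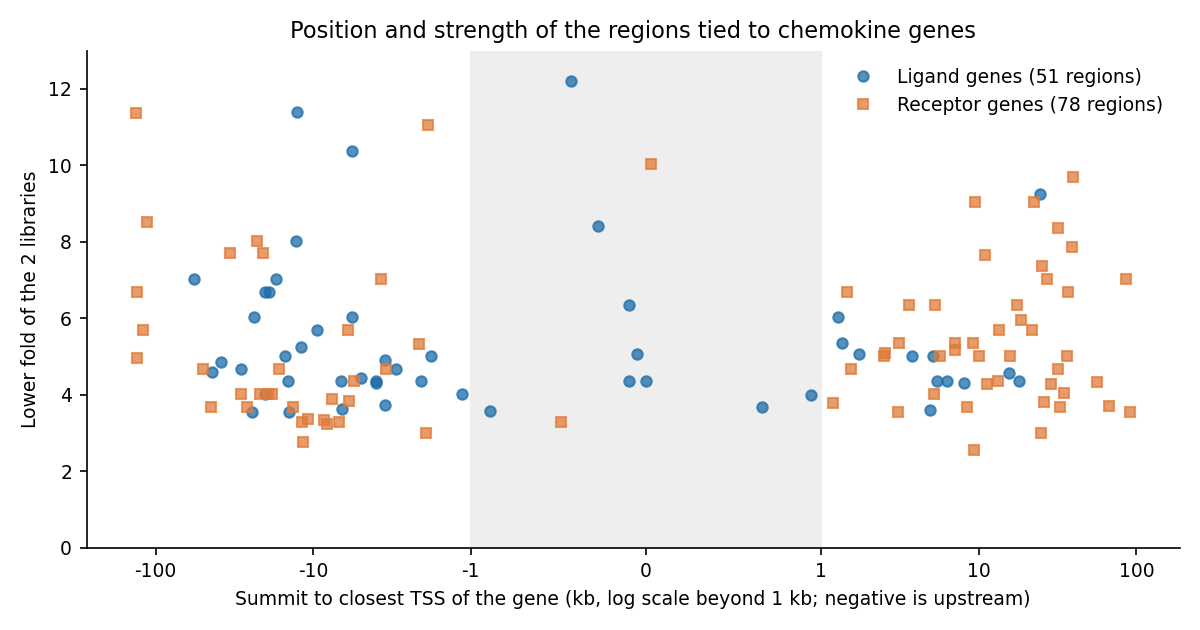
Lower fold of the 2 libraries (y axis) against the distance from the summit to the closest TSS of the gene (x axis, kb, log scale beyond 1 kb, negative upstream) for 51 regions tied to ligand genes (circles) and 78 tied to receptor genes (squares). The grey band marks 1 kb either side of the TSS. Most points lie outside the band, and the highest, at Ccl6, lies inside it at a lower fold of 12.2.

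Agreement of the libraries was high for replicate 2 and low for replicate 1, as in the whole lists. Of the replicate 2 peaks tied to members, 176 of 204 (86.3%) overlapped a replicate 1 peak, against 66.3% of that whole list, whereas 145 of 505 replicate 1 peaks (28.7%) overlapped a replicate 2 peak, against 26.0%. Within 1 kb of a TSS the order was turned, with 17 of 23 replicate 2 peaks at members shared (73.9%), against 83.6% of all such peaks, and 17 of 46 replicate 1 peaks (37.0%), against 47.1%. Replicate 1 had the higher fold in 76.7% of member regions and in 72.2% of all regions. The list of replicate 1 held 106228 peaks and that of replicate 2 held 47224. Taken alone, replicate 1 had peaks within 1 kb of 24 members (39.3%), against 46.1% of all genes, and replicate 2 of 16 members (26.2%), against 37.5%.

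The neutrophil-attracting CXC ligands, which act on CXCR2, were led by Cxcl2, and 4 of the 5 had a region (80.0%, against 44.8% of all genes). Cxcl2 had 8 regions, and the strongest, at chr5:90896249-90899568 with its summit at -5641 bp, reached fold 16.0 and 10.4 (−log10 q 60.5 and 21.1). Over the Cxcl2 TSS itself, a region with its summit at -272 bp had fold 8.40 and 9.37, so that replicate 2 was the higher there. Another Cxcl2 region, from within the gene to past its end, had fold 5.07 and 11.05. Cxcl1 had its strongest region at -9401 bp (8.88 and 5.69, −log10 q 21.5 and 6.95) and Cxcl5 at -17096 bp (10.3 and 7.03, −log10 q 30.6 and 10.6). Neither had a consensus region within 1 kb. At the Cxcl1 TSS, each library had a peak, with fold 4.82 in replicate 1 and 2.97 in replicate 2, but these peaks did not overlap. Cxcl3 had 3 regions, the strongest 3769 bp downstream of its TSS (9.39 and 5.02), and a peak of replicate 2 alone within 1 kb (fold 5.36). Cxcl15, which encodes the lung chemokine lungkine, had none.

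The interferon-induced ligands of CXCR3 had weaker regions. Cxcl10 had a region over its TSS, with the summit at -97 bp and fold 5.07 and 4.35 (−log10 q 7.60 and 3.79), and another at -3513 bp with fold 4.91 and 5.36. The region of Cxcl9 lay in the gene 5141 bp from the TSS (6.34 and 5.02). Values at both genes were near the median of all regions.

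Among the 16 inflammatory CC ligands, which attract monocytes, eosinophils and T cells, 11 had a region (68.8%, against 44.8% of all genes). A region within 1 kb of a TSS was found at 5 (31.25%), near the 33.7% of all genes. Ccl6, a rodent CC ligand that signals through CCR1, had the strongest region of all members. This region, chr11:83585353-83593998, spanned 8646 bp across the whole gene, with fold 21.6 and 12.2 and −log10 q 84.3 and 28.0, which ranked 255 of 25454 by lower fold. The summits of its libraries lay 1438 bp apart, at -431 bp in replicate 1 and at 1007 bp in replicate 2. A further region of 8018 bp at -12607 bp had fold 11.4 and 13.1, and Ccl6 had 5 regions in total. Its neighbor Ccl9, also a ligand of CCR1, had 5 regions, of which the one over the TSS was strongest (8.87 and 5.36, −log10 q 22.5 and 6.11). The summits of that Ccl9 region lay 1245 bp apart, at 1353 bp in an intron in replicate 1 and at 108 bp in replicate 2.

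Ccl2, the ligand of CCR2 that recruits monocytes, had 6 regions, all upstream by summit. The strongest was at -12791 bp (12.9 and 8.03, −log10 q 39.5 and 13.5), its summits lay 10 bp apart, and the region over the TSS had fold 9.64 and 6.36. Ccl8, which in the mouse acts through CCR8, had no peak of either library within 1 kb of its TSS, but 24430 bp downstream lay a region with fold 17.3 and 9.24 (−log10 q 60.9 and 17.5). Ccl3 and Ccl4, which encode the macrophage inflammatory proteins, were weak in comparison. The strongest of the 3 Ccl4 regions lay inside the gene at 1277 bp (6.04 and 6.27, −log10 q 14.0 and 8.63) and that of Ccl3 at 662 bp (4.06 and 3.68, −log10 q 4.64 and 2.43). Replicate 1 also had a peak of fold 8.37 within 1 kb of the Ccl3 TSS, which no replicate 2 peak overlapped. Ccl17, a ligand of CCR4, had its strongest region at -5696 bp (7.10 and 6.02, −log10 q 14.6 and 7.81).

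The remaining inflammatory CC ligands with a region were Ccl1, Ccl5, Ccl11 and Ccl22, each with 1 region, at 4913, -20080, 15607 and -11927 bp in this order, and a lower fold of 3.60 to 5.25. The 5 without a region were Ccl7, Ccl12, Ccl20, Ccl24 and Ccl26. For Ccl7, the edge of the closest region lay 3597 bp from the TSS, but the nearest start was that of the protein-coding record Gm17268. Ccl12, a mouse monocyte chemoattractant, was the member with the highest fold among the 10 members (16.4%, against 10.3% of all genes) that had a peak of replicate 1 only within 1 kb, at 7.61, followed by Ccl4 at 6.04, Ccl17 at 4.50 and Cx3cl1 at 4.31. A peak of replicate 2 only was found at Ccr3 and Cxcl3, 2 members (3.28%), against 1.7% of all genes. For Ccl4, the consensus region reached into the 1 kb window although the replicate 2 peak did not.

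Ligands made constitutively for cell placement were counted separately for the CC and CXC families. Of the 7 CC ligands of this kind, Ccl25, Ccl27a and Ccl28 had a region (42.9%, near the 44.8% of all genes), with 4 regions in all. Ccl25, the ligand of CCR9, had a region over its TSS at -52 bp (5.07 and 8.70, −log10 q 7.60 and 15.6), which also lay within 1 kb of a start of Elavl1. Ccl27a had a narrow region at -2 bp (5.58 and 4.35, −log10 q 9.22 and 3.79), and that of Ccl28 was in an intron (4.31 and 5.69). No region was found at Ccl19, Ccl21a, Ccl21b or Ccl27b. Within 1 kb of their TSSs, however, the share of 50-base words that occur once in the genome was 28.7% for Ccl19, 23.4% for Ccl21a and 0% for Ccl21b and Ccl27b, and absence of a peak cannot be read there. For Ccl27a the share was 45.4%, and it was at least 84.0% for the other 56 members. The constitutive CXC ligands Cxcl12, Cxcl13 and Cxcl17 had no region, whereas Cxcl14 had 3, all far upstream, the strongest at -56744 bp (14.0 and 7.03, −log10 q 44.3 and 10.6). The membrane-anchored ligands Cx3cl1 and Cxcl16 and the C ligand Xcl1 had none.

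A smaller share of receptor genes than of ligand genes had a region at the start, but receptor genes had more regions in total. A region within 1 kb was found at 4 of 24 receptor genes (16.7%) and 9 of 37 ligand genes (24.3%), against 33.7% of all genes. Any region was found at 16 (66.7%) and 21 (56.8%), against 44.8%. The receptor genes together had 78 of the 129 regions and the ligand genes 51. Many of the 78 were at a few genes, with 14 at Ccr1, 10 at Cxcr4 and 9 at Ccrl2. Among members with any region, the median number per gene was 2, the same as for all genes. Ccr1, a receptor for several inflammatory CC ligands on myeloid cells, had 14 regions, the most of any member. One covered its TSS at 30 bp (chr9:123967467-123969602, fold 13.7 and 10.04, −log10 q 43.1 and 19.9), and 3 in all overlapped the gene. The other 11 lay downstream, among them a region of 6612 bp at 39787 bp from the TSS with fold 19.5 and 9.71.

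Ccr2, the receptor that monocytes need to leave the bone marrow, had no peak of either library within 1 kb of a TSS. Its strongest region lay at -33700 bp (12.4 and 7.70, −log10 q 37.1 and 12.5), and weaker ones lay in the gene at 1180 bp (5.07 and 3.78) and 7083 bp (5.66 and 5.36). Ccr3 had 6, none above a lower fold of 5.02. The Ccr9 regions lay inside its long gene record, and the stronger (7.87 and 9.04, −log10 q 17.5 and 16.6) was within 1 kb of a start of Lztfl1, its nearest gene. Ccr10 likewise shared its region near the TSS (3.30 and 3.63) with a start of Cntnap1, and its stronger one (7.43 and 5.02, −log10 q 17.5 and 5.30) was nearest to Plekhh3. Ccr6 and Ccr1l1 had 4 and 1 regions with a lower fold of at most 5.33, and Ccr4, Ccr7 and Ccr8 had none.

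Cxcr4, the receptor of CXCL12, had 10 regions over a wide stretch. The strongest lay far upstream (13.4 and 11.4, −log10 q 41.9 and 24.6), and its summits were 53 bp apart. Altogether 5 Cxcr4 regions were more than 100 kb upstream, and these were assigned by nearest TSS only. Over the Cxcr4 TSS, a region of 2726 bp had fold 9.13 and 6.69 (−log10 q 22.5 and 9.62). The summits of this region lay 1856 bp apart, at 1448 bp in an intron in replicate 1 and at -408 bp in replicate 2. Cxcr5, the receptor of CXCL13, had 8 regions and none within 1 kb, with the strongest at -20805 bp (10.7 and 7.70, −log10 q 29.0 and 12.5). Cxcr1 had its strongest at -3707 bp (7.39 and 7.03, −log10 q 18.8 and 10.6), Cxcr6, the receptor of CXCL16, at 9210 bp (6.09 and 5.36, −log10 q 10.9 and 6.11), and Cxcr2 in an intron (5.84 and 4.69). Cxcr3 had none.

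Cx3cr1, the fractalkine receptor of monocytes, had its strongest region in an intron 9497 bp from the TSS (16.3 and 9.04, −log10 q 58.9 and 16.6). Of its 7 regions, 3 had Cx3cr1 as the nearest gene. The other 4 lay in the long 3′ part of the gene record, closer to the starts of Csrnp1 and Xirp1. Only replicate 1 had a peak within 1 kb of a Cx3cr1 TSS, with fold 2.45. Xcr1, the receptor of XCL1, had 3 regions, and the strongest (14.0 and 5.02) was within 1 kb of a start of Fyco1.

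Of the 5 atypical receptor genes, Ccrl2 alone had regions, and it had 9. Among all genes, 44.8% had any region and 33.7% had one within 1 kb of a TSS. A set of 5 genes is too small to compare with these shares. Ccrl2 binds the leukocyte attractant chemerin. Its region of 5707 bp at chr9:111054699-111060405, over the TSS, had fold 18.0 and 11.05 (−log10 q 64.9 and 23.4), which ranked 416 of 25454. The summits were 1844 bp apart, at -1870 bp in replicate 1 and -26 bp in replicate 2. Ackr1, Ackr2, Ackr3 and Ackr4 had no peak of either library within 1 kb.

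**Figure D3:**
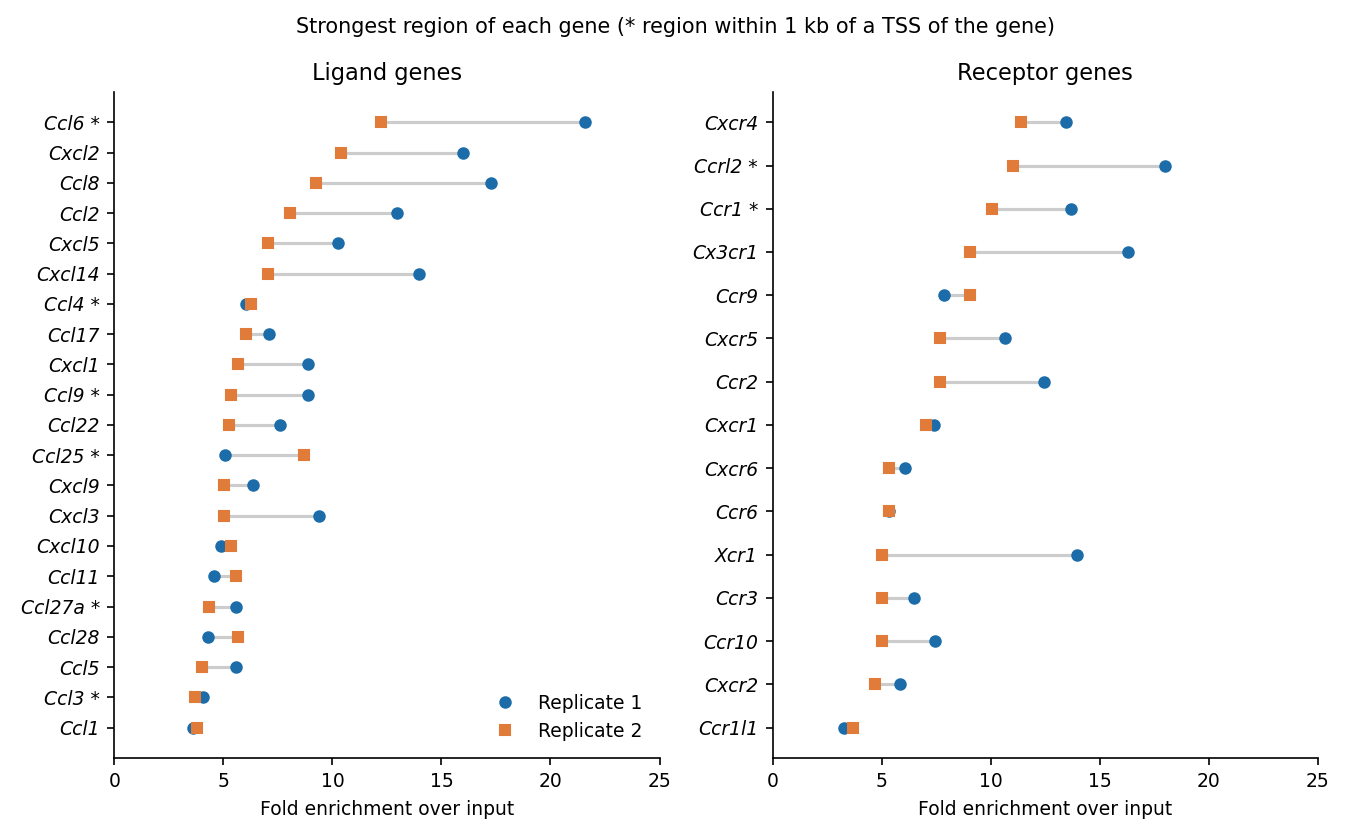
Fold enrichment over input (x axis) of the strongest region of members with a region, in replicate 1 (circles) and replicate 2 (squares), for 21 ligand genes (left) and 15 receptor genes (right), ordered by the lower fold, with an asterisk where that region lay within 1 kb of a TSS of the gene. Ccl6 leads the ligand genes at 21.6 and 12.2, and Cxcr4 the receptor genes at 13.4 and 11.4.

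Many chemokine genes sit in clusters, and binding differed between clusters. Members whose TSSs lay within 200 kb of the next formed 6 clusters of at least 3 genes. The densest was the CC ligand cluster from Ccl5 to Ccl4 on chromosome 11, with 18 regions in 139 kb or 130 per Mb, against 9.66 per Mb over the genome and 15.7 per Mb within 100 kb of any protein-coding TSS. The CXC ligand cluster from Cxcl5 to Cxcl2 on chromosome 5 had 13 regions in 147 kb (88.7 per Mb), and the receptor cluster from Ccr9 to Ccr2 on chromosome 9 had 32 (73.5 per Mb), at least 1 of them tied to each of the 7 genes counted. The order of both ligand clusters depended on the setting, since 7 regions of the Ccl5 to Ccl4 cluster and 8 of the Cxcl5 to Cxcl2 cluster had −log10 q of at least 5 in both lists, and 4 and 5, in the same order, passed a reciprocal overlap of 50%. Lower densities were seen in the Ccl2 to Ccl1 cluster on chromosome 11, with 5 regions (34.7 per Mb), and in the Ccl22 to Ccl17 cluster on chromosome 8, with 2 (30.1 per Mb). Each stretch ran from the start of its first gene to the end of its last. The Ccl2 regions farther upstream, the strongest at -12791 bp (12.9 and 8.03), and the Ccl22 region at -11927 bp were thus not counted. The cluster of Ccl27b, Ccl19 and Ccl21a on chromosome 4 had no peak in either list, and the sequence around its starts was mostly not unique, as given above. Within clusters, regions gathered at particular genes. In the chromosome 5 cluster they lay around Cxcl3 and from upstream of Cxcl1 to Cxcl2, and in the chromosome 9 cluster 14 of the 32 were tied to Ccr1.

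**Figure D4:**
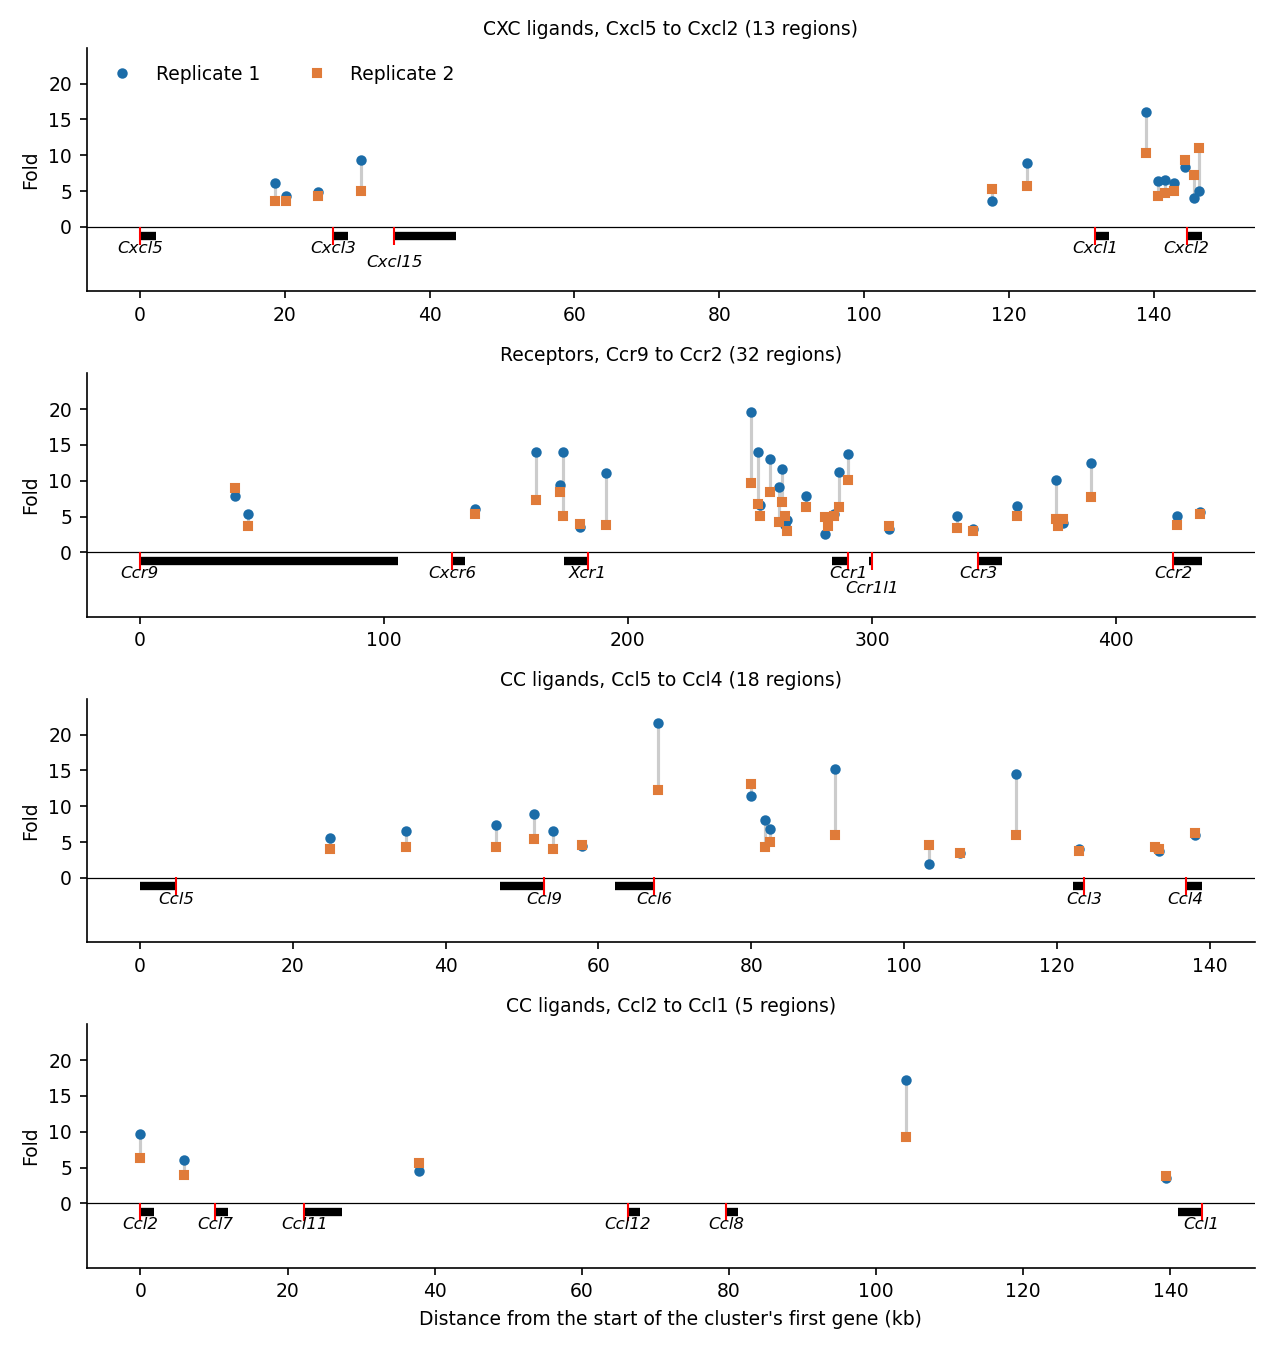
Fold enrichment over input (y axis) of each consensus region, in replicate 1 (circles) and replicate 2 (squares), against the distance of its summit from the start of the first gene of the cluster (x axis, kb), in 4 clusters. Black bars are the genes and red ticks their starts, for members only. Regions are dense beside Cxcl2, Ccr1 and Ccl6 and sparse in the stretch from Ccl2 to Ccl1, which has 5. Regions farther upstream of Ccl2 are not drawn.

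Motif letters near member summits were close to those of all regions for RBPJ. Within 100 bp of the summit, TGGGAA occurred on either strand in 25 of 129 member regions (19.4%), against 18.8% of all 25454 regions. The longer GTGGGAA, which contains it, occurred in 9 (6.98%), against 4.64%, but around the summit of the other library in 5 (3.88%), against 4.84%. The ETS word AGGAAG was present in 58 (45.0%), against 36.7%, and the AP-1 word TGANTCA in 15 (11.6%), against 9.30%. The CEBP word TTGCNNAA was in 25 (19.4%), against 14.3%, and the NF-κB word in 9 (6.98%), against 10.4%. Around the summit of the other library, the ETS word was in 50 (38.8%), against 35.0%, and the AP-1 word in 9 (6.98%), against 8.26%. The CEBP word was there in 24 (18.6%), against 13.2%, and the NF-κB word in 13 (10.1%), against 10.4%. Member windows had a median GC content of 44.3%, against 46.8% for all windows. A word is a match of letters and was not shown to be a bound site. By lower fold, the strongest region with TGGGAA was the strongest region of Cxcr4 (13.4 and 11.4), followed by that of Ccrl2 above. The others included one inside the Ccr9 gene record at the Lztfl1 start and the strongest region of Ccl17.

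Genes that act downstream of chemokine receptors differed from the chemokine genes themselves. In a list of 32 genes for G protein subunits, arrestins, receptor kinases, phosphoinositide 3-kinase and phospholipase subunits, Rac activators, Src-family kinases and RGS proteins, 28 (87.5%) had a region within 1 kb of a TSS, against 33.7% of all genes. Any region was found at 31, against 44.8% of all genes. The list was chosen by hand and was not matched for promoter CpG. Gnai2, the main inhibitory G protein alpha subunit of leukocytes, had a region with its summit at -175 bp and fold 11.4 and 7.36. Plcb2, Rac2 and Rgs10 had regions elsewhere, and Rgs18 had none. The CXC ligands with older names, Pf4 and Ppbp, lie in the chromosome 5 cluster, and neither had a region within 1 kb. Pf4 had 1 region, with its summit 5495 bp from the TSS (6.09 and 3.68), and Ppbp had none.

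The labeled cell type was checked at marker genes. Regions within 1 kb of a TSS were found at 7 of 9 AM marker genes (Siglecf, Itgax, Pparg, Car4, Fabp4, Chil3 and Mrc1), 1 of 4 monocyte genes, 1 of 5 neutrophil genes, and none of 5 T and B lymphocyte, 3 type II cell and 3 endothelial genes. All 4 monocyte genes, Ccr2 and Cx3cr1 among them, had some region, as did the lymphocyte gene Cd4 and 2 of the 3 endothelial genes, Cdh5 and Vwf. Of all genes, 33.7% had a region within 1 kb of a TSS and 44.8% had some region. Marker sets of 3 to 9 genes are too small to compare with these shares. Vwf had 12 regions, the strongest at -13373 bp with fold 10.1 and 8.37. A peak is not expression, and how far other cells in the sorted aliquots contributed to regions at their genes was not tested.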

How the data were processed

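HT-ChIPmentation of RBPJ was done on sorted AMs. By the account of the methods and of the submitters, bcl2fastq (2.20.0.422) and CASAVA demultiplexed the reads, Cutadapt removed adapters, Bowtie2 aligned to mm10, and SAMtools kept proper pairs without duplicates and with mapping quality above 30. MACS3 then called peaks in each library separately against input at q 0.05. In the deposited lists, fold enrichment is a ratio of the summit over background. The deposited −log10 p and −log10 q are the peak caller's. The deposited score was not used. Read depth was not used here, so no value carries a depth interval, and 2 libraries limit the precision. Fold was compared between lists only side by side.

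Python 3.11.15, numpy 2.4.6, pandas 2.3.3 and matplotlib 3.10.9 were used. No peak ran past a chromosome end of GRCm38, whose sequence and basic GENCODE transcripts (vM21) were used. Coordinates are counted from 1. Gene bodies span the basic transcripts. The strongest region of a gene was that with the highest lower fold. Uniqueness was counted over 50-base words on the primary chromosomes. Values are given for every member with a region within 1 kb, for the 20 members with the strongest regions, and for Ccr2 and Cx3cr1. Members without a consensus region near a TSS but with a peak of 1 library there are given for the 3 highest. A receptor gene that the totals include is not reported here by itself and was left out of the clusters. The procedures were tested on simulated peaks with planted genes. Members, lists and settings were chosen with earlier results of these data known.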

Additional observations from a re-analysis of the deposited data

How the results depend on the processing

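Counts of members by gene body, nearest gene or any region stayed within 1.5 times of the reported ones under most alternatives. With −log10 q of at least 5 in both lists, 72 regions were tied to members in place of 129, and 9 members (14.8%, against 24.0% of all genes) had one within 1 kb. A reciprocal overlap of 50% left 2 members within 1 kb, 8 by gene body (13.1%, against 23.9% of all genes), 23 by nearest gene, 24 with any region and 41 regions, and members with any region were then 39.3%, against 30.9% of all genes. Summits within 100 bp left 8 members within 1 kb (13.1%, against 22.6% of all genes) and 71 regions. A window of 3 kb gave 20 members (32.8%, against 36.2% of all genes). The cause of these differences was not tested. Over the lists of single libraries, the counts ran from 16 to 24 within 1 kb, 19 to 31 by gene body, 39 to 45 by nearest gene, 40 to 45 with any region and 204 to 505 peaks tied to members. With any single list, members with any region were 65.6% (replicate 2) and 73.8% (replicate 1), against 58.1% and 62.7% of all genes. The 6 clusters held 70 regions, against 36, 24 and 44 under −log10 q of at least 5, reciprocal overlap and close summits, alternatives added after seeing the data. TGGGAA was in 9 member regions within 50 bp of the summit (6.98%, against 9.97% of all regions), and GTGGGAA in 3 (2.33%, against 2.31%). Choosing the strongest region by −log10 q changed it for 1 of 25 named members, Ccl6. Without the 5 members with less than 50% unique words, also added later, 12 of 56 had a region within 1 kb. No paired analysis was possible because the inputs have no values here and no result comes from a test.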
